A study of Mus musculus with 8 samples.

Results

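The genes described here encode the machinery that copies chromosomal DNA. They are 41 genes chosen by name: the factors that license and fire replication origins, the MCM helicase and its GINS partners, the sliding clamp and its loader, the replicative polymerases and primase, the enzymes that join lagging strand fragments, the single-strand binding protein RPA, 5 enzymes of deoxynucleotide supply, and Uhrf1. Each gene was read from the array probes that carry its name, with the brightest probe standing for the gene. All 41 have a probe, and 40 of them were among the 19145 genes that could be tested. The exception is Cdc7, the kinase that acts with Dbf4 to fire origins, whose 2 probes were well above background on 0 of the 8 arrays.

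Bone marrow-derived macrophages (BMDMs), cultured macrophages that arise from precursors in the marrow, came from 4 male C57BL/6J mice. Cells of each mouse were transfected either with a control siRNA or with siRNA aimed at the terminal loop of Y RNAs, giving 4 arrays in each group. The replicate numbers in the labels were taken as the mice, which makes 1 pair of arrays per mouse. All samples share the strain, the sex, the cell type and transfection with an siRNA, and no untransfected cells are among them. Neither the sequences nor the dose of the siRNA, nor how long the cells were kept afterwards, is given in the sources used here. The title of the series names the targets of small RNAs derived from Y RNAs as its question.

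Y RNAs are short RNAs that code for no protein and are held by Ro60 and La, and vertebrate Y RNAs are also known as factors needed for the start of DNA replication in cell-free systems. Before S phase, Cdc6 and Cdt1 load the MCM helicase on origins, while geminin (Gmnn) holds Cdt1 back. The Dbf4-dependent kinase then lets Cdc45 and GINS join the helicase, primase and the polymerases start new strands, and PCNA tethers the polymerases. Many of these genes are transcribed together at the G1 to S transition by E2F transcription factors. Cultured BMDMs divide in response to macrophage colony-stimulating factor, and dividing cells express these genes.

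A level is the log2 signal of a gene minus the 75th percentile of all signals on that array, and a difference is the Y RNA siRNA array minus the control array. The number of arrays limits the precision, and no probe is named for the mouse Y RNA genes Rny1 or Rny3 (0 probes), so the knockdown itself was not measured. The labelled cell type was checked on its markers, and 10 of 10 macrophage markers were well above background on all 8 arrays. Of 10 erythroid and megakaryocyte markers 2, Epor and Pf4, were well above background on all arrays, with Hba-a1, Hbb-b1 and Gata1 on 0 arrays. Of 10 lymphocyte markers 3 were, namely Cd3e, Cd79a and Cd79b, with Ms4a1, Pax5, Cd8a and Rag1 on 0. Among 10 markers of neutrophils and their precursors 5 were well above background on all arrays, and Prtn3, Ngp and Ly6g on 0. Those 5 were Elane, Ctsg, Camp, S100a8 and S100a9. The control array of mouse 4 came from RNA with an integrity number of 8, and the others from RNA at 10.

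The promoters are shown first because many of these genes rise and fall together across the arrays described below. A RefSeq promoter table for GRCm38.p6, with 250 bases before and 50 after each start, matched 33 of the 41 genes through 40 windows. An 8-base E2F motif (TTTCCCGC, TTTCGCGC, TTTGCCGC or TTTGGCGC, on either strand, matches allowed to overlap) was found in 13 of the 40 windows, which is 32.5%, against 2.26% of all 32851 promoters in the table. The windows of the replication genes were richer in G and C than the table as a whole, with a median of 61.3% against 52.7%. Among promoters at least as GC-rich as that median, 4.33% held the E2F motif. The CCAAT box (CCAAT on either strand) was in 52.5% of the 40 windows and in 37.4% of all promoters, and the CHR element of cell cycle genes (TTTGAA on either strand) in 17.5% and 17.9%. These are matches of letters, and no binding was measured.

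Below are the 250 bases before the start of 4 of these genes, 5′ to 3′ on the strand of the gene, with E2F motif matches and CCAAT boxes in capitals. Mcm5 (chr8:75109259-75109508, plus strand) and Mcm6 (chr1:128359706-128359955, minus strand) are shown for their overlapping E2F matches, Gins3 (chr8:95633309-95633558, plus strand) as the gene whose signal varied least, and Prim1 (chr10:128014965-128015214, plus strand) as the gene whose signal varied most.
Mcm5: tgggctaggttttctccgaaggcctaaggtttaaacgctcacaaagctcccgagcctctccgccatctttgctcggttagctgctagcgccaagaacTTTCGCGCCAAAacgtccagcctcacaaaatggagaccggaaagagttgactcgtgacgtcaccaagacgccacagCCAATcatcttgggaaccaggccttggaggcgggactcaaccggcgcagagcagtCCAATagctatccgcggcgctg
Mcm6: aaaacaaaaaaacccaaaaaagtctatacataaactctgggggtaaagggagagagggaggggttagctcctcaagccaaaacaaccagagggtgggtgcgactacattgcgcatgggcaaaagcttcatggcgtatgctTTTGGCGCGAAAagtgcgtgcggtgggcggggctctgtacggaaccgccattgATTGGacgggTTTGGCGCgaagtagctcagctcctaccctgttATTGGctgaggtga
Gins3: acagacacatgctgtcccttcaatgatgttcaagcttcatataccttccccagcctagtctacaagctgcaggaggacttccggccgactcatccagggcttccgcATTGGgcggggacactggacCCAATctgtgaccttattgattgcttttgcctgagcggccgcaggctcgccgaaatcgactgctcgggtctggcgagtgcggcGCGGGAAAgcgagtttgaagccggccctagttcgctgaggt
Prim1: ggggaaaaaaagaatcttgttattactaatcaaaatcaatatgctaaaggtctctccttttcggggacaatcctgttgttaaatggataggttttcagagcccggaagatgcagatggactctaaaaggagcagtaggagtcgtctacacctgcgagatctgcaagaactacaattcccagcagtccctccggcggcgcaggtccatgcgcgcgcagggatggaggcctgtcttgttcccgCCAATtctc
In Mcm5 and in Mcm6 a pair of matches on opposite strands overlaps in 1 run of 12 capitals, and Mcm6 holds a further match nearer to its start. Gins3 has 1 match, on the opposite strand, and no match lies in the window of Prim1. The 13 genes with an E2F match in a window had a median range over the 8 arrays of 1.03 log2 units, from 0.18 (Gins3) to 1.44 (Mcm5). The 19 tested genes with a matched window and no E2F match had a median range of 0.81, from 0.37 to 2.00 (Prim1), so the ranges of genes with and without a match overlapped widely.

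The replication genes did not pass the test for the siRNA: in limma 0 of 40 had an adjusted p under 0.05, and 0% of all 19145 genes did. At an unadjusted p under 0.05 there were again 0 of 40 replication genes, against 3.41% of all genes. With the mouse as a fixed block 0 replication genes passed at either level, against 9.31% of all genes at an unadjusted p. With the mouse as a random block 0 passed after adjustment, against 0.0575% of all genes (11 genes), and 1 replication gene, Rfc2, passed at an unadjusted p, against 9.51%. On average 35 of the 40 were higher with the Y RNA siRNA, against 52.2% of all genes, with a median difference of 0.09 against 0.00 for all genes, and differences from -0.08 (Tyms) to 0.42 (Prim1). That count changed with the arrays used. It was 12 of 40 without the control array of mouse 1 and 12 without the Y RNA siRNA array of mouse 3. Without the control array of mouse 4 it was 23, and without mouse 1 it was 21. In these fits 49.6% to 55.2% of all genes were higher. Without any other single array it was 37 to 40, with 50% to 52.8% of all genes higher. Without mouse 2, 3 or 4 as a whole it was 39, 34 and 32, with 51.3%, 51.1% and 55.5% of all genes higher. With median centring it was 37, and 65.5% of all genes were higher. A fit without 1 array leaves that mouse in 1 group only, so its difference from the other mice enters the value.

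The 95% interval of the difference lay within 2-fold in either direction for 38 of the 40 replication genes, against 95.6% of all genes. It lay within 1.5-fold for 23 of the 40, against 84.7% of all genes. These intervals, and every SE given below, come from the fit without a mouse block, so the spread between mice enters them. No interval was computed with the block. A p that misses the threshold does not show that the levels were alike, and for the other 17 genes the interval reached past 1.5-fold.

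The difference turned with the mouse. Averaged over the 40 genes, the Y RNA siRNA array was above the control array by 0.33 in mouse 1, 0.08 in mouse 3 and 0.20 in mouse 4, and in mouse 2 the difference was -0.26. It was above zero for 39 of 40 genes in mouse 1 (56.4% of all genes), 34 in mouse 3 (55.2%) and 38 in mouse 4 (44.6%), and below zero for 38 of 40 in mouse 2 (48.7%). The same order of signs, higher in mice 1, 3 and 4 and lower in mouse 2, was found in 32 of the 40 genes and in 8.87% of all genes. Only Rfc2 of the 40 differed in the same direction in 4 of 4 pairs, against 19.3% of all genes, and only in Rfc2 did the groups not overlap, against 2.43%. These counts of signs were chosen after the values were seen, and genes that vary together are not independent observations. The pairs rest on replicate numbers, and after subtracting group means the 2 arrays of mouse 2 correlated least over all genes, at 0.155.

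**Figure D1:**
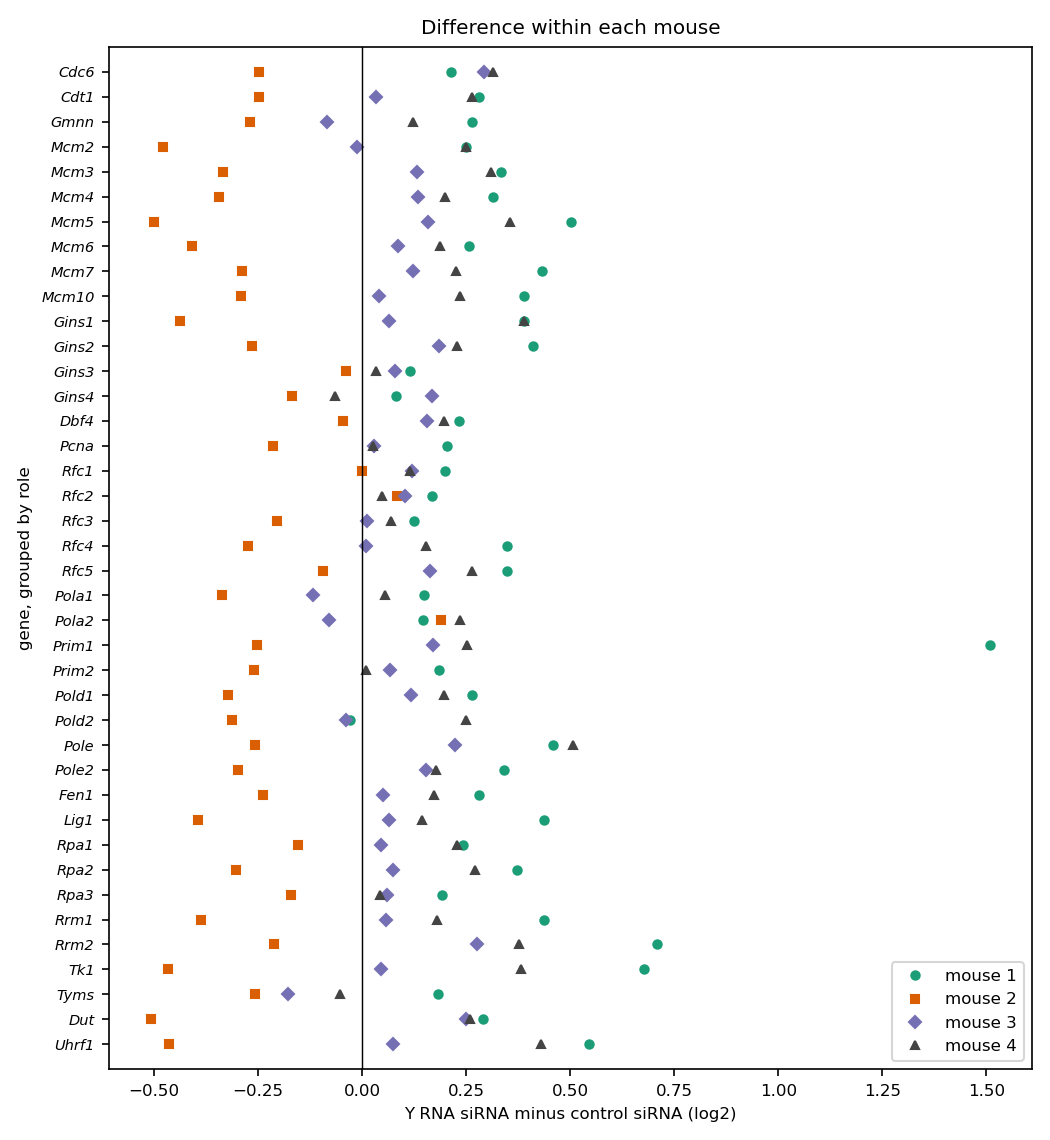
Difference in log2 level between the Y RNA siRNA array and the control array of the same mouse (horizontal axis) for each of the 40 replication genes (vertical axis, grouped by role); each symbol is 1 mouse. The squares of mouse 2 lie left of zero for 38 genes, while the circles of mouse 1 lie right of it for 39 and reach 1.51 for Prim1.

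Across the 8 arrays the replication genes moved as a block. The first principal component of the 40 genes held 93.9% of their variance over arrays, against 43.0% for all genes, and 39 of the 40 had the same sign on it. The highest signal was on the Y RNA siRNA array of mouse 3 for 31 of the 40 (16.7% of all genes), and the lowest on the control array of mouse 1 for 35 (21.8%). On 8 of 8 arrays 24 of the 40 stood on the same side of their own mean as the other replication genes did on average, against 3.14% of all genes. Averaged per mouse, mouse 3 was highest for 38 (27.5%) and mouse 1 lowest for 36 (33.1%). The arrays, mice and profile in these counts were taken from the same 40 genes after their values were seen. Genes that vary together are not independent observations, so the counts describe the block and do not test it. The mean deviation of the 40 genes from their own 8-array means was -0.47, 0.22, 0.31 and -0.24 on the control arrays of mice 1 to 4, and -0.14, -0.04, 0.40 and -0.04 on the Y RNA siRNA arrays. The control arrays thus spanned a wider interval than the Y RNA siRNA arrays, and every Y RNA siRNA value but that of mouse 3 lay inside it. The median range of a replication gene over the arrays was 0.85 log2 units, against 0.40 for all genes, and 15 of the 40 ranged over more than 1 log2 unit, against 11.4% of all genes.

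**Figure D2:**
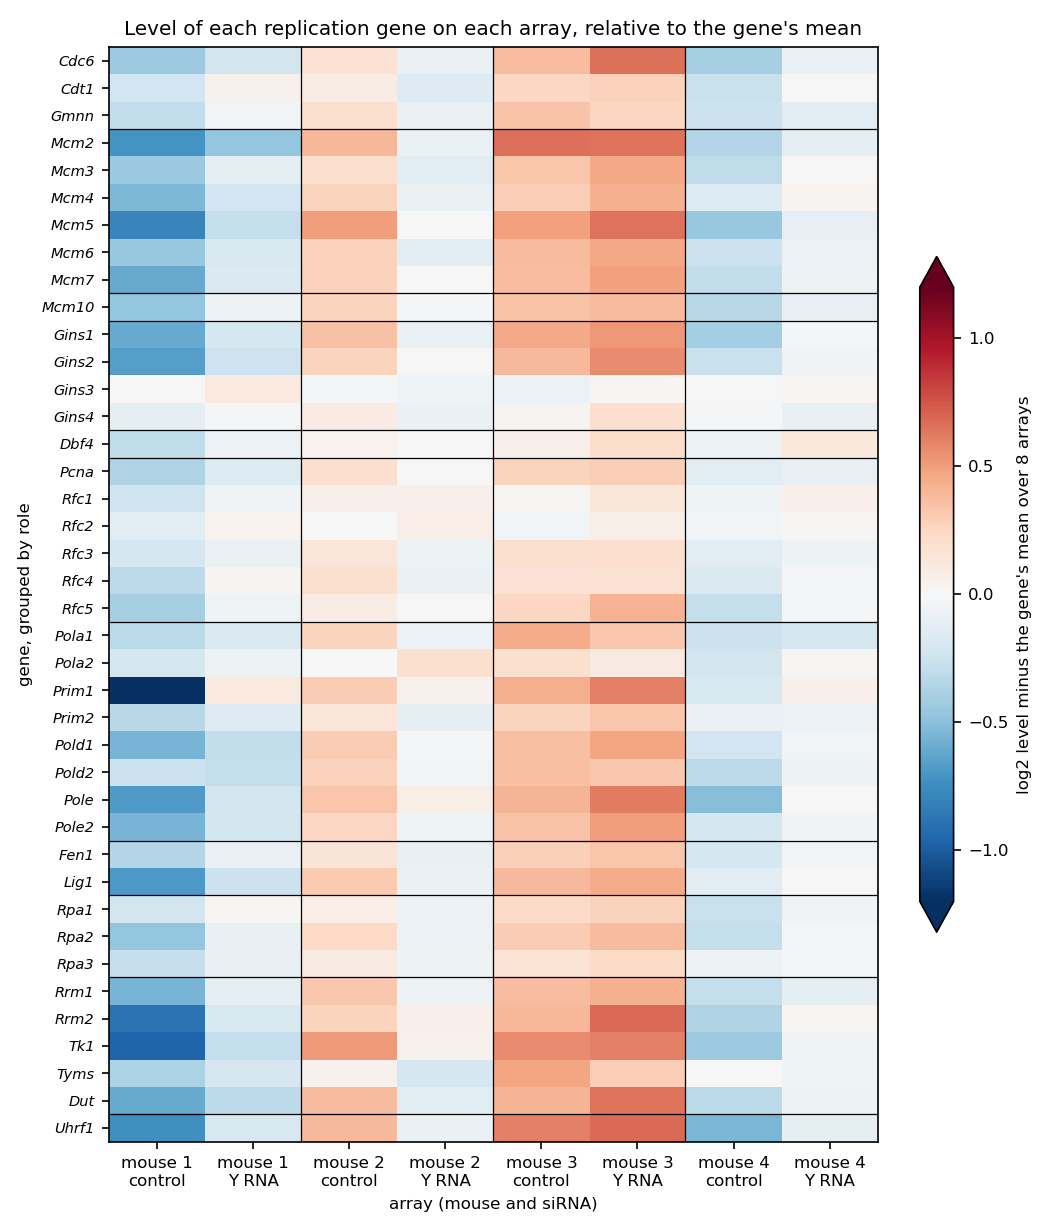
Log2 level of each of the 40 replication genes minus the gene's mean over the 8 arrays (colour), with genes in rows by role and arrays in columns by mouse and siRNA. Nearly every row is darkest blue on the control array of mouse 1 and red on both arrays of mouse 3, while Gins3 and Rfc2 stay near 0 throughout.

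The difference between mice was tested by the limma F test of the mouse, with the siRNA in the model. The 2 arrays of each mouse lay side by side on the slide, so mouse and place on the slide cannot be told apart. After adjustment 0 of the 40 replication genes passed, against 4.72% of all genes (904), and at an unadjusted p under 0.05 there were 24 of the 40, against 29.8%. The smallest adjusted p among them was 0.0778, for Mcm2, followed by 0.0933 for Cdc6 and 0.0963 for Tyms. This count depended on the processing: it was 17 with normexp background correction, where 17.2% of all genes passed, and 6 with the authors' deposited value table, where 9.84% did. It was 14 without mouse 2 (6.39% of all genes), 7 without the Y RNA siRNA array of mouse 2 (2.90%) and 4 without its control array (2.45%). The count at an unadjusted p, chosen after the values were seen, was 1 without mouse 3 (17.9% of all genes), 2 without its control array (17.7%) and 3 without its Y RNA siRNA array (17.1%). It was 15 without mouse 1 (14.1%), 9 without the control array of mouse 1 (18.8%), 9 without that of mouse 4 (24.7%) and 11 without the Y RNA siRNA array of mouse 4 (27.4%).

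Among the licensing factors, Cdc6, the ATPase that helps to load the MCM helicase, was at -2.50, -1.90, -1.70 and -2.46 on the control arrays of mice 1 to 4. On the Y RNA siRNA arrays it was at -2.28, -2.14, -1.40 and -2.15. Both groups were highest in mouse 3, and the groups overlapped. The difference was 0.14 ± 0.25 (SE, n = 4 per group), with an adjusted p of 1.00 in limma. Its second probe differed by -0.14 and by -0.38 in mouse 4, where the probe used differed by 0.31. Cdt1, the partner of Cdc6 in loading, was at 3.98, 4.30, 4.46 and 3.94 in the controls and 4.26, 4.06, 4.49 and 4.21 with the Y RNA siRNA. Geminin, the inhibitor of Cdt1, differed by 0.01 and ranged over 0.64.

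The MCM helicase unwinds DNA as a ring of subunits Mcm2 to Mcm7, and its 6 genes shared 1 profile, with ranges from 0.90 to 1.44. All of the 6 were lowest on the control array of mouse 1, and 5 were highest on the Y RNA siRNA array of mouse 3. Mcm2 was at 0.23, 1.35, 1.61 and 0.59 on the control arrays and at 0.48, 0.87, 1.60 and 0.84 on the Y RNA siRNA arrays, with a difference of 0.00 ± 0.35 (SE). Both arrays of mouse 3 stood above all others, and both arrays of mouse 1 below. Mcm5 was at 2.29, 3.58, 3.57 and 2.63 in the controls and at 2.79, 3.08, 3.73 and 2.98 with the Y RNA siRNA. Its pair differences of 0.50, -0.50, 0.16 and 0.35 show the turn in mouse 2 at the size of the rise in mouse 1, and the mean difference was 0.13 ± 0.34 (SE).

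Mcm3 was at 3.71, 4.35, 4.48 and 3.84 in the controls and at 4.04, 4.02, 4.61 and 4.15 with the Y RNA siRNA. The smallest unadjusted p of the 6 subunits for the siRNA was that of Mcm3, at 0.61 in limma. A second Mcm3 probe starts 17 bases away, and it read 3.24 on average where the first read 4.15, while the differences were 0.13 and 0.11. Brightness thus varied with the probe within 1 gene, and levels are not compared between genes here. Mcm10, which helps to activate the loaded helicase, was at 1.77, 2.50, 2.58 and 1.90 in the controls and 2.16, 2.21, 2.62 and 2.14 with the Y RNA siRNA, so that the groups overlapped.

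The GINS complex, which travels with Cdc45 and the helicase, split in its behaviour. Gins1 and Gins2 ranged over 1.12 and 1.23 log2 units, and Gins3 and Gins4 over 0.18 and 0.31. Gins2 was at 1.40, 2.33, 2.45 and 1.79 in the controls and at 1.81, 2.06, 2.63 and 2.02 with the Y RNA siRNA, following the common profile. Gins3 was at 4.07, 4.06, 4.00 and 4.06 in the controls and at 4.18, 4.02, 4.08 and 4.10 with the Y RNA siRNA, the narrowest range of the 40 genes. Gins3 was lowest on the control array of mouse 3, where most of the others were high. Dbf4, the regulatory subunit of the kinase, was at 0.05, 0.39, 0.42 and 0.29 in the controls and at 0.28, 0.35, 0.57 and 0.49 with the Y RNA siRNA. Its difference was 0.13 ± 0.10 (SE), higher in 3 of 4 pairs.

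PCNA is the ring that holds the polymerases on DNA, and the clamp loader of Rfc1 to Rfc5 puts it there. Pcna was at 5.75, 6.32, 6.37 and 5.99 on the control arrays and at 5.95, 6.10, 6.40 and 6.01 on the Y RNA siRNA arrays. It thus followed the mice, with a difference of 0.01 ± 0.16 (SE). Pcna ranged over 0.65, and of the loader genes Rfc1 to Rfc4 ranged over less, at 0.37, 0.20, 0.41 and 0.51, and Rfc5 over more, at 0.81.

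Rfc2 had the smallest siRNA p of the 40 genes. It was at 3.67, 3.79, 3.76 and 3.76 on the control arrays (mean 3.74 ± 0.05, SD) and at 3.83, 3.87, 3.87 and 3.81 on the Y RNA siRNA arrays (3.84 ± 0.03, SD). The lowest Y RNA siRNA array stood above the highest control array. The difference was 0.10 ± 0.05 (SE), with pair differences of 0.17, 0.08, 0.10 and 0.05, an unadjusted p of 0.0774 and an adjusted p of 1.00 in limma. With the mouse as a fixed block its unadjusted p was 0.0531, and with the mouse as a random block 0.0212 (adjusted p 0.417 in limma). Its probe lies at chr5:135073809-135073868 (mm9, plus strand), and the exon it falls in was not looked up.

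Rfc4 gave unlike answers on its 2 probes, which was noticed after the values were seen. The brighter one, at chr16:23114024-23114083 (mm9, minus strand), differed by 0.06, with pair differences of 0.35, -0.27, 0.01 and 0.15. The dimmer one, at chr16:23120982-23121041, was at -0.12, 0.40, 0.46 and 0.10 in the controls and at 0.40, 0.66, 0.91 and 0.63 with the Y RNA siRNA. It was thus higher in 4 of 4 pairs, by 0.53, 0.27, 0.45 and 0.52, although the groups overlapped. When every one of the 26774 kept probes was fitted on its own, this probe differed by 0.44 ± 0.15 (SE), with an unadjusted p of 0.0202 and an adjusted p of 1.00 in limma. It was the only 1 of the 50 kept probes of replication genes with an unadjusted p under 0.05, against 3.33% of all kept probes.

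Polymerase alpha and primase start each new strand, and polymerases delta and epsilon extend it. Prim1, the catalytic primase subunit, was at 1.02, 2.72, 2.85 and 2.23 on the control arrays (mean 2.21 ± 0.84, SD) and at 2.53, 2.47, 3.02 and 2.48 on the Y RNA siRNA arrays (2.62 ± 0.27, SD). The control array of mouse 1 stood 1.51 below its pair, while the other pairs differed by -0.25, 0.17 and 0.25. The difference of 0.42 ± 0.38 (SE) thus rested on that array, with an adjusted p of 1.00 in limma, and ranged from 0.02 to 0.64 when 1 array or mouse was left out. Its probe lies at chr10:127466952-127467011 (mm9, plus strand).

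Pola1, the catalytic subunit of polymerase alpha, was at 0.16, 0.75, 0.92 and 0.22 in the controls and at 0.31, 0.41, 0.81 and 0.28 with the Y RNA siRNA, with both arrays of mouse 3 on top. Pola2, its accessory subunit, was at -1.63, -1.42, -1.23 and -1.64 in the controls and at -1.48, -1.23, -1.31 and -1.41 with the Y RNA siRNA. Unlike most of the others, Pola2 was higher in mouse 2 (0.19) and lower in mouse 3 (-0.08). Pold1 and Pole, the catalytic subunits of polymerases delta and epsilon, ranged over 1.03 and 1.31 and differed by 0.06 and 0.23. A second Pole probe gave the same mean difference of 0.23. Prim2, Pold2 and Pole2 differed by -0.00, -0.03 and 0.09. A second, dimmer Prim2 probe differed by -0.14, and by -0.35 in mouse 1, where the probe used differed by 0.18. In the pair of mouse 1, 7 of these 8 genes read higher on the Y RNA siRNA array by the probes used, and Pold2 differed by -0.03.

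Fen1, which trims the flaps of lagging strand fragments, was at 3.90, 4.40, 4.54 and 4.04 in the controls and at 4.18, 4.16, 4.59 and 4.21 with the Y RNA siRNA. Lig1, the ligase that seals them, was at 3.08, 4.09, 4.16 and 3.63 in the controls and at 3.52, 3.69, 4.22 and 3.78 with the Y RNA siRNA. Both genes were lowest on the control array of mouse 1 and highest on the Y RNA siRNA array of mouse 3. The RPA subunits, which coat single-stranded DNA in replication and repair, had ranges of 0.54 (Rpa1), 0.84 (Rpa2) and 0.50 (Rpa3). Rpa1 was at 4.33, 4.64, 4.78 and 4.29 in the controls and at 4.57, 4.48, 4.83 and 4.51 with the Y RNA siRNA. Rpa3 was at 2.87, 3.26, 3.32 and 3.09 in the controls and at 3.06, 3.09, 3.38 and 3.13 with the Y RNA siRNA. The groups overlapped for all of these genes.

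The enzymes of deoxynucleotide supply had the widest ranges among the roles with more than 1 gene, with a median range of 1.26 log2 units over 5 genes. Rrm2, the subunit of ribonucleotide reductase made in S phase, was at 3.51, 4.67, 4.80 and 4.04 in the controls and at 4.21, 4.46, 5.07 and 4.42 with the Y RNA siRNA. Tk1, thymidine kinase of dividing cells, was at 2.58, 4.06, 4.11 and 3.11 in the controls and at 3.26, 3.60, 4.16 and 3.50 with the Y RNA siRNA. For both, the control arrays of mice 1 and 4 were the lowest values of the 8. The difference was 0.29 ± 0.31 (SE) for Rrm2 and 0.16 ± 0.37 (SE) for Tk1. Tyms, which makes thymidylate, was at -2.86, -2.43, -2.01 and -2.48 in the controls and at -2.68, -2.69, -2.19 and -2.53 with the Y RNA siRNA. Its difference of -0.08 ± 0.19 (SE) was the lowest of the 40. Rrm1, the large reductase subunit, and Dut, which removes dUTP, differed by 0.07 each.

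Uhrf1 binds hemimethylated DNA behind the fork and brings in the maintenance methyltransferase Dnmt1. It was at 2.36, 3.48, 3.70 and 2.55 in the controls and at 2.91, 3.02, 3.77 and 2.98 with the Y RNA siRNA. As with Rrm2 and Tk1, the control arrays of mice 1 and 4 were lowest, and the difference was 0.15 ± 0.34 (SE), higher in 3 of 4 pairs.

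**Figure D3:**
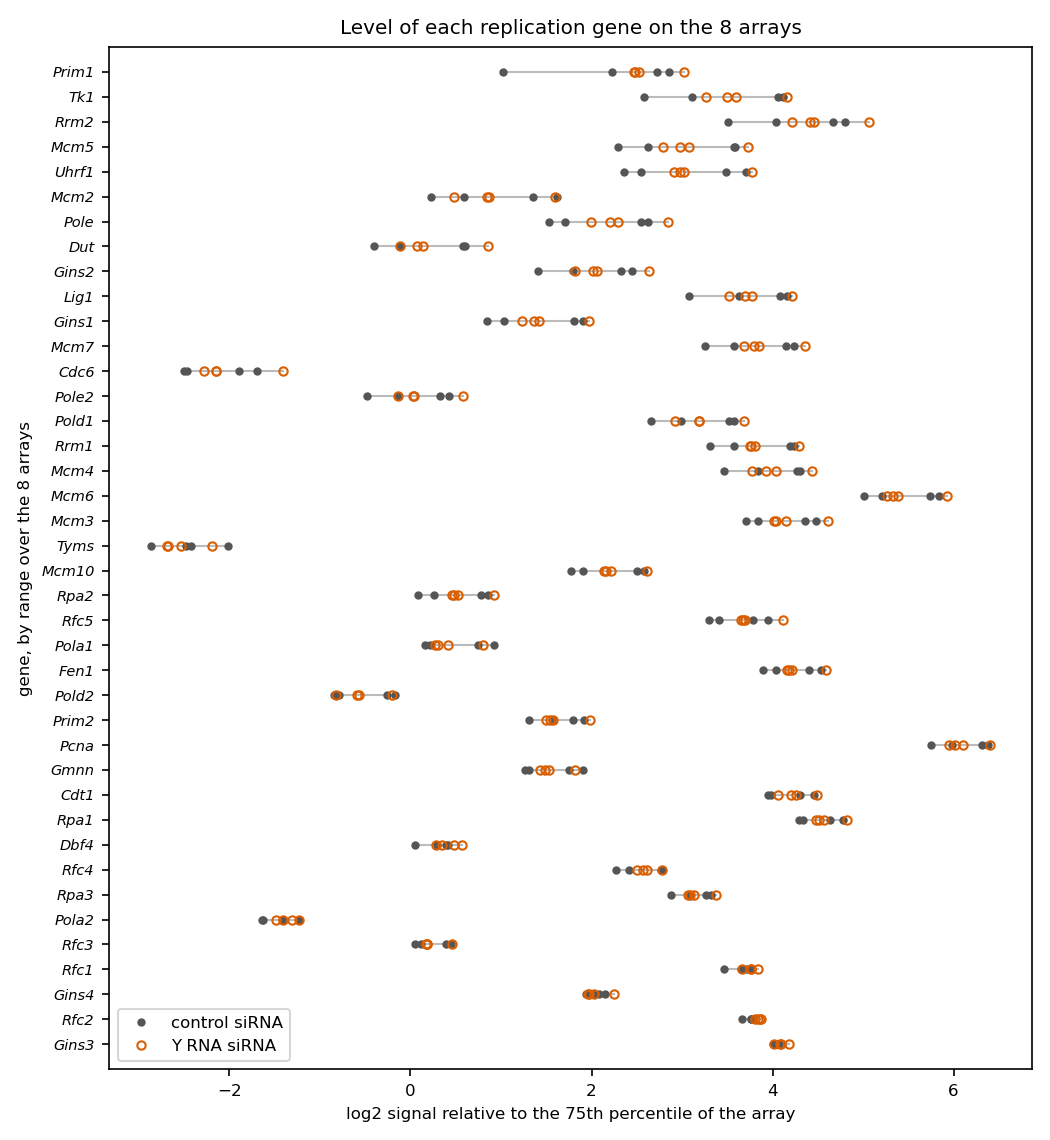
Log2 level of each replication gene on the 8 arrays (horizontal axis, minus the 75th percentile of that array), with genes ordered by their range; filled points are control arrays and open points Y RNA siRNA arrays. The point of Prim1 at 1.02 is the control array of mouse 1, and the points of the 2 groups overlap for all genes but Rfc2.

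Other genes of the pathway were taken from 6 lists drawn up with earlier results of these data known, and the lists differed in how far they followed the profile of the 40 genes. Among 32 other replication factors 26 were higher on average, with a median difference of 0.06, and 0 passed the siRNA test. Their mean deviations were -0.33, 0.15, 0.22 and -0.20 on the control arrays of mice 1 to 4 and -0.09, -0.02, 0.29 and -0.03 on the Y RNA siRNA arrays. Among 17 E2F and Rb family genes 13 were higher, with a median of 0.05, and among 19 genes of mitosis 16 were higher, with a median of 0.05. Of 9 other deoxynucleotide enzymes 6 were higher, of 16 cyclins, kinases and inhibitors of G1 and S phase 11, and of 9 genes of the replication checkpoint 6. Of all genes 52.2% were higher, and the counts of these lists were not repeated with arrays left out. The mean deviations of the checkpoint genes were small, at -0.08, 0.06, -0.01 and -0.08 on the control arrays. On the Y RNA siRNA arrays they were 0.09, -0.05, 0.08 and -0.00. Single checkpoint genes nevertheless ranged over 0.14 to 2.23 log2 units, with a median range of 0.29. Of these 9 genes 5 were highest on the Y RNA siRNA array of mouse 3, against 16.7% of all genes. The control array of mouse 1 was lowest for 4 of them, against 21.8%. In limma 0 genes of these 6 lists passed the siRNA test, and 2 of their 102 tested genes, Cdkn2a and Cenpf, had an unadjusted p under 0.05. That is 1.96%, a smaller share than the 3.41% of all genes.

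**Figure D4:**
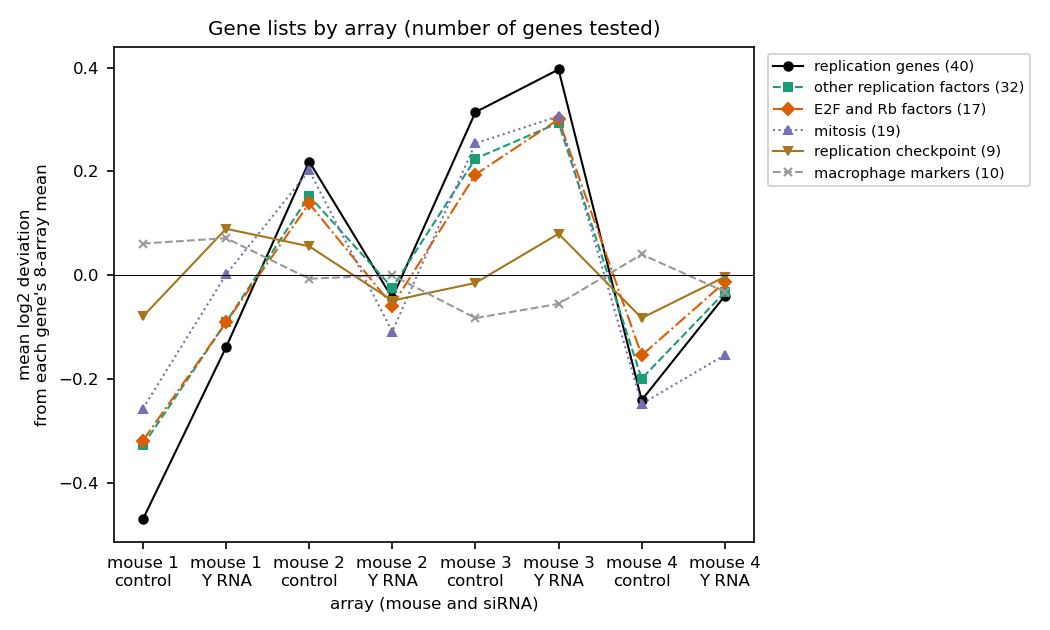
Mean deviation of the genes of each list from their own 8-array means (vertical axis, log2) on each array (horizontal axis, by mouse and siRNA); each line is 1 list, with its number of genes in the legend. The replication genes run from -0.47 to 0.40, the lines of other replication factors, E2F factors and mitosis turn at the same arrays over a smaller interval, the checkpoint line stays between -0.08 and 0.09, and macrophage markers stay between -0.08 and 0.07.

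Chaf1b, a subunit of the chromatin assembly factor that follows the fork, was at 2.91, 3.90, 4.05 and 3.39 in the controls and at 3.26, 3.62, 4.16 and 3.63 with the Y RNA siRNA, the profile of the MCM genes. Mybl2, an activator of cell cycle genes, had pair differences of 0.37, -0.47, 0.23 and 0.48. Bub1 and Tpx2, which act at kinetochores and on the spindle, turned in mouse 2 as well, by -0.33 and -0.35. Wdhd1, which links polymerase alpha to the helicase, was higher in 4 of 4 pairs, by 0.27, 0.29, 0.04 and 0.16, with a difference of 0.19 ± 0.12 (SE). The E2F gene E2f5 was also higher in 4 of 4 pairs, by 0.30, 0.07, 0.13 and 0.09. Orc4, an origin recognition subunit, was lower in 4 of 4 pairs, by a mean of -0.10 ± 0.06 (SE).

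Among further genes taken by the same rule, Dtymk, which makes thymidine diphosphate, differed by 0.12, and the nucleoside diphosphate kinase genes Nme1 and Nme2 by 0.06 and 0.09. E2f6 differed by 0.11, Atr, the checkpoint kinase of stalled forks, by -0.10, and Wee1, which restrains entry into mitosis, by 0.05. Chek1, the kinase that Atr activates, had a difference of 0.42 ± 0.44 (SE) and pair differences of 0.92, -0.17, 0.45 and 0.49. Ccnd2, a D-type cyclin, differed by 0.26 ± 0.16 (SE), Cdc20, an activator of the anaphase-promoting complex, by -0.13, and Rad1, of the checkpoint clamp, by -0.14.

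The inhibitor locus Cdkn2a was at -1.97, -1.85, -1.81 and -2.19 on the control arrays and at -1.57, -1.65, -1.71 and -1.70 on the Y RNA siRNA arrays. The groups did not overlap, and the difference was 0.30 ± 0.09 (SE), with an adjusted p of 1.00 in limma. Cenpf, a kinetochore protein, was at -2.76, -3.24, -3.06 and -2.68 in the controls and at -3.54, -3.93, -3.01 and -3.88 with the Y RNA siRNA. Its difference of -0.65 ± 0.22 (SE) had an adjusted p of 1.00 in limma, and mouse 3 differed by 0.05. The limma F test of the mouse passed for 3 of the 102 genes, or 2.94%, against 4.72% of all genes. They were Cdkn1c, which encodes the inhibitor p57 (adjusted p 0.00542), Dna2, a nuclease of lagging strand processing (0.0325), and E2f3 (0.0350). Cdkn1c was at 1.15, 2.52, 2.91 and 2.16 in the controls and at 0.83, 2.41, 2.87 and 2.01 with the Y RNA siRNA, so that mouse 1 was lowest and mouse 3 highest in both groups. Cdkn1b, which encodes p27, was lowest in mouse 3 in both groups, at 3.02 and 3.12, and highest in mouse 1, at 3.59 and 3.61.

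Some markers of other cells and the depth of signal moved with the mice too. The summed level of a list is the log2 of its summed linear signals. For the 10 macrophage markers it was 10.57 to 10.78 in the controls and 10.56 to 10.79 with the Y RNA siRNA, highest in mouse 1 and lowest in mouse 3. The summed level of the 10 neutrophil and precursor markers was 2.11 to 2.73 in the controls and 2.24 to 2.68 with the Y RNA siRNA, lowest in mouse 1 and highest in mouse 3 in both groups. The summed level of 10 stem and progenitor markers, of which Flt3 and Gata2 were above background on 0 arrays, was 1.57 to 2.05 and 1.85 to 2.20. Of 10 fibroblast markers, Col1a1, Col1a2, Dcn and Fn1 were well above background on all 8 arrays and Pdgfra and Lum on 0. Their summed level was 0.47 to 2.05 and 0.79 to 2.07, lowest in mouse 1. The 10 erythroid and megakaryocyte markers summed to 5.71 to 6.70 and 5.94 to 6.54, nearly all of it Pf4, also lowest in mouse 1. The 10 lymphocyte markers summed to 0.64 to 1.60 and 1.36 to 1.58, and the 10 dendritic cell markers, nearly all of it Siglech, to 6.57 to 6.73 and 6.52 to 6.63. The 4 tested dendritic cell markers, Itgax, Siglech, Ccr7 and Batf3, moved more on average than that sum. On the control and Y RNA siRNA arrays the sum was 6.62 and 6.63 in mouse 1, and 6.73 and 6.52 in mouse 3. The ranges of the 4 markers over the arrays ran from 0.22 (Siglech) to 2.54 (Itgax), and Ccr7 was well above background on 5. Their mean deviation was -0.68 and -0.60 on the control and Y RNA siRNA arrays of mouse 1 and 0.58 and 0.56 on those of mouse 3. These mice were also lowest and highest for most replication genes. On the control arrays of mice 2 and 4 the dendritic cell markers stood at -0.03 and 0.09, and the replication genes at 0.22 and -0.24. The 75th percentile of the log2 signal, 9.04 to 9.34, was lowest on both arrays of mouse 1. The part of these measures in the profile of the replication genes was not tested, and fewer dividing cells and less RNA of these genes per cell cannot be told apart.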

How the data were processed

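RNA of 8 samples (0.2 µg each) was read on Agilent mouse arrays in 1 colour (Cy3), per the labels' protocols. The deposited scanner files hold linear intensity values per spot, background-subtracted by Feature Extraction 10.7.3.1, with no scaling between arrays, per the file headers. The value table deposited by the authors is in log2, by a method and centring that no source used here states; it was an alternative only.

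The main values are log2 processed intensity minus the array's 75th percentile, without control and outlier spots. A probe had to stand well above background on 4 or more of 8 arrays (26774 of 55681), and the brightest probe stood for a gene under its name on the array. The share of spots well above background was 48.7% to 50.7% per array, with 0 saturated. The siRNA groups were set against each other in limma 3.58.1 (R 4.3.3, two-sided), Benjamini-Hochberg adjusted over all 19145 genes, threshold 0.05. All adjusted p-values are from limma. The fits were tested on simulated data. All arrays shared 1 slide and 1 scan; Y RNA siRNA arrays lay in slide columns 1 and 3 and controls in 2 and 4; group and slide column therefore cannot be told apart.

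The series design states 4 mice, and the labels' numbers were used as pairs: after subtracting group means the arrays of mice 1 to 4 correlated at 0.618, 0.155, 0.582 and 0.285. Nothing states separate cultures within a mouse.

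The genes and lists were chosen with earlier results of these data known. Named with array values were, per role, the genes with the smallest siRNA and mouse p, those with 1 direction in 4 pairs and the 4 widest ranges; from each other list, up to 2 genes by each p. Of the genes taken by p from the other lists, 1 is not reported here. Alternatives covered background correction, scaling, the filter, the probe rule, the block and leaving out arrays or mice.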

Additional observations from a re-analysis of the deposited data

Results flagged for a closer look

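In 10 of the 80 groups of 4 arrays examined, 1 array stood apart from the other 3 by the gap-to-range criterion of Dixon, where about 1 in 20 (4.0 groups) is flagged by chance. All 10 are the Y RNA siRNA array of mouse 3, in genes that vary together, so they are not 10 separate observations. The level there was -1.40 for Cdc6, 2.62 for Mcm10, 0.457 for Rfc3, 4.11 for Rfc5, 3.02 for Prim1, 1.99 for Prim2, 4.59 for Fen1, 0.926 for Rpa2, 4.29 for Rrm1 and 3.77 for Uhrf1. The other Y RNA siRNA arrays lay lower in each case, for Fen1 between 4.16 and 4.21 and for Uhrf1 between 2.91 and 3.02. The control array of the same mouse was also high, at 4.54 for Fen1 and 3.70 for Uhrf1.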

How the results depend on the processing

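The count of 0 replication genes past the adjusted threshold held in all 21 alternatives. At an unadjusted p 1 gene passed with the deposited value table and 1 with the random replicate block, under which 11 of all genes passed after adjustment. Genes higher with the Y RNA siRNA numbered 12 to 40 when an array or mouse was left out and 31 to 37 otherwise, and the median difference -0.06 to 0.20 and 0.07 to 0.12. Of all genes, 49.6% to 55.5% and 48.4% to 65.5% were higher. Genes differing between mice numbered 17 with normexp and 6 with the deposited table, and 0 to 14 when an array or mouse was left out. The share of all genes differing was 17.2%, 9.84% and, with no filter, 0.497%, and 0.0104% to 6.39% with arrays left out; the cause was not tested. At an unadjusted mouse p there were 15 with no filter, against 17% of all genes. With an array or mouse left out there were 1 to 34, against 14.1% to 33.3% of all genes. Genes with 1 direction in all pairs numbered 2 with normexp, quantile normalization or the deposited table, and 4 with median centring. With a mouse left out, where 3 pairs remain and agreement is easier to reach, they numbered 2 to 33. The share of all genes was not computed for these counts. The counts of sign order (28 to 32), of genes highest on the Y RNA siRNA array of mouse 3 (28 to 33) and lowest on the control array of mouse 1 (34 to 35), and the share of component 1 (90.7% to 95.2%) stayed within those ranges. The fixed replicate block changed no call.

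Small differences turned in sign. Mcm2 was at -0.010 with normexp, -0.0068 with quantile normalization and -0.026 with the deposited table, Pcna at -0.0035 with quantile normalization, and Cdc6 at -0.00055 as the mean of its probes. With an array or mouse left out, the difference ranged from -0.054 to 0.29 for Cdc6, -0.24 to 0.22 for Mcm2, -0.025 to 0.26 for Mcm3, -0.11 to 0.34 for Mcm5, -0.044 to 0.22 for Mcm10 and -0.057 to 0.29 for Gins2. It ranged from -0.11 to 0.10 for Pcna, -0.18 to 0.074 for Pola1, -0.041 to 0.17 for Fen1, -0.16 to 0.21 for Lig1, -0.057 to 0.098 for Rpa3, -0.14 to 0.37 for Tk1, -0.22 to 0.068 for Tyms and -0.074 to 0.37 for Uhrf1.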
